A study of Mus musculus with 2 samples.

Results

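Matricellular proteins are secreted into the extracellular matrix but do not build its fibres; they bind collagens, growth factors, proteases and integrins and so tune how cells attach and signal. Fibronectin is the fibre-forming adhesion glycoprotein on which many of them assemble. In bone, SPARC is an abundant non-collagenous matrix protein, and periostin is named for its expression in the periosteum. Of 9 genes listed for this group, listed by symbol with no threshold on a measured value, though with earlier results of these data known, 8 had at least 1 probe set that names a single gene: Postn, Tnc, Thbs1, Thbs2, Sparc, Ccn1, Ccn2 and Fn1. They were read by 13 of 20380 single-gene probe sets, and the table gives 12393 genes in all. No such probe set was found for Spp1 (osteopontin), which was not analysed here.

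The cells were calvarial osteoblasts, grown from the skull vault of C57Bl/6 mice aged 4 to 5 days. One array holds cells labelled as from mice with the Col1-Dlk1 transgene, in which Dlk1, a membrane protein that regulates the differentiation of progenitor cells, was overexpressed. The other holds cells labelled as wild-type littermates, and per the design text each array is a pool of 3 cultures. The transgenic cells were sorted to enrich for Dlk1-positive cells, while the labels used here mention no sort of the wild-type cells, so sort and genotype cannot be told apart. The labels say nothing more of the promoter than the transgene's name. With 1 array per genotype there is no replicate, no test and no p-value, and every difference below compares 2 arrays, not 2 genotypes.

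Facts about the arrays touch every result. Against the labels, the only Dlk1 probe set read 26.5 on the array said to be Col1-Dlk1 and 306 on the other, so directions hold between the arrays as labelled, and exchanged labels would turn every one round. It was not tested if its probes match the RNA made from the transgene. On the Col1-Dlk1-labelled array all 20 measured macrophage markers were higher by 2-fold or more, with a summed intensity of 25492 against 328. Their gene values, with probe sets averaged, were 136 to 7267 against 1.16 to 43.3. All 17 measured cell cycle genes were at least 2-fold lower there. Of 11 measured osteoblast markers, Col1a1 and Col1a2, the genes of type I collagen, passed on both arrays, Omd (osteomodulin) was called lower with 34.9 against 102 (-1.31), and 8, among them Alpl, Sp7 and Ibsp, lay below the level threshold described next. With the constant added before the log raised to the median of all values, Omd differed by -0.90 and was not called. In pooled bulk RNA, fewer cells of a type and less RNA per cell cannot be told apart.

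Differences are given on the log2(intensity + 10.96) scale, as the Col1-Dlk1-labelled array minus the wild-type-labelled array, after averaging the probe sets of a gene. A gene passed the level threshold when its higher value reached 42.8, the median of all values, and was called when, in addition, the difference reached 2-fold. All 8 measured members passed. On the Col1-Dlk1-labelled array, 3 were called higher (Tnc, Thbs2 and Thbs1) and 1 was called lower (Postn), while Sparc, Fn1, Ccn1 and Ccn2 lay within 2-fold. Among all 6795 genes that passed, 9.39% were called higher, 7.11% lower and 16.5% either way. The median difference was 0.56 over the 8 members and 0.02 over all passing genes. A set of 8 genes is too small to read these shares as a property of the group. The same shares are the background for the counts of the gene lists below, where only passing genes can be called.

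Promoter sequences are shown for the 3 called members that the RefSeq table (build GRCm38.p6) holds, Postn, Tnc and Thbs2, and for Ccn1, the member that had a TEAD match. The table held 5 of the 8 measured members, the other being Sparc. Each run is the 250 bases before a transcription start, written 5′ to 3′ on the gene's strand. Capitals mark matches, on either strand, to the TATA motif TATAAA and to the TEAD motif GGAATG, which TEAD factors, the DNA-binding partners of the co-activator YAP, recognise. The start used for Postn is the downstream one of 2 listed, and that for Tnc the upstream one of 2.
Postn, chr3:54360857-54361106, plus strand: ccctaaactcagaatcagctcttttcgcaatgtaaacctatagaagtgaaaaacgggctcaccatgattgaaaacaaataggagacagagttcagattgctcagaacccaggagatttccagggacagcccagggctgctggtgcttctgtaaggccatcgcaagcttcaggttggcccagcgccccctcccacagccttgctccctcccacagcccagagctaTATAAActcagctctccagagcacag
Tnc, chr4:64047016-64047265, minus strand: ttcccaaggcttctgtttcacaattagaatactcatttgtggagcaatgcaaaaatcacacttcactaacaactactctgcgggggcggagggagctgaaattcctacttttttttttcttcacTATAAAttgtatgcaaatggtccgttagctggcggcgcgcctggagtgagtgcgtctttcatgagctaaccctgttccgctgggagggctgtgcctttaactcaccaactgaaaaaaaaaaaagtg
Thbs2, chr17:14694263-14694512, minus strand: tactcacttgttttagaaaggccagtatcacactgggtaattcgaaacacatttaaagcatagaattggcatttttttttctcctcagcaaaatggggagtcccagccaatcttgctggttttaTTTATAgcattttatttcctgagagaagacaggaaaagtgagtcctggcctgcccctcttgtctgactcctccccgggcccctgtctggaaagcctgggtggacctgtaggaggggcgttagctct
Ccn1, chr3:145649986-145650235, minus strand: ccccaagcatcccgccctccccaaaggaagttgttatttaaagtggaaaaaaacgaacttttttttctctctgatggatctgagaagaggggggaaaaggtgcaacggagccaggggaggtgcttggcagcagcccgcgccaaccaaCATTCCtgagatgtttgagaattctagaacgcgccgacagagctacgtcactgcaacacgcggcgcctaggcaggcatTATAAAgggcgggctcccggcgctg

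In these windows TATAAA lies 26 to 21 bases before the start of Postn and 25 to 20 bases before that of Ccn1. In Tnc it lies 126 to 121 bases before the start, and in Thbs2 the same stretch holds it on the opposite strand. The single TEAD match, in Ccn1, lies 103 to 98 bases before the start and reads on the opposite strand. Of 32851 promoter windows of this length, 12.4% hold TATAAA and 12.6% hold GGAATG on either strand. The AP-1 motif TGANTCA (6.75% of windows) and the CArG box (1.47%), the site of serum response factor, were searched the same way and found in none of the windows shown, and no match overlapped another. The window before the other listed start of Postn, chr3:54359017-54359266, holds none of these motifs. Nor does the Sparc window, which is not shown. Ccn1 was shown for its TEAD match and Sparc was left out, so the windows shown cannot be read as enriched against these shares. Counted from the other listed start of Tnc, the same TATAAA lies 205 to 200 bases before it. A match describes these letters only.

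Postn had the largest difference of the 8 members. It encodes periostin, a fasciclin-domain protein that binds collagen and fibronectin and is known for its role in periosteum and other connective tissue under load. Its only probe set read 609 on the Col1-Dlk1-labelled array and 4232 on the wild-type-labelled array, 6.95 times lower as a plain ratio. The log2 difference was -2.78, the 29th most negative of the 6795 passing genes. Both readings lay far above the level threshold, at percentiles 92.1 and 99.1 of their arrays, so the pseudocount had little weight. Cell cycle genes, with a list median of -2.07, differed in the same direction between these arrays, and their part in the periostin result was not tested.

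Tnc differed in the opposite direction. It encodes tenascin-C, a hexameric glycoprotein of developing and injured connective tissue that modulates adhesion to fibronectin. Its only probe set read 5439 on the Col1-Dlk1-labelled array and 1201 on the wild-type-labelled array, a plain ratio of 4.53. The log2 difference of 2.17 was the 200th most positive. Tnc and Postn were therefore far apart in direction, although both encode proteins that bind fibronectin. For each of them a single probe set carries the result, so no second reading of the same RNA was at hand.

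The thrombospondins, calcium-binding glycoproteins that engage CD36, CD47 and integrins, were both called higher. Thbs1, whose product can activate latent TGF-beta, was read by 2 probe sets. One read 3703 on the Col1-Dlk1-labelled array against 1639, and the other read 3621 against 1944. Their log2 differences were 1.17 and 0.89, and the mean of 1.03 lies just above the 2-fold line. With each array centred on its median it was 0.97 and no longer called.

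Thbs2, whose product regulates collagen fibril assembly and limits vessel growth, had 2 probe sets that differed in size. The brighter read 1603 on the Col1-Dlk1-labelled array against 978, a log2 difference of 0.71. The dimmer read 685 against 194, a difference of 1.77. Both were higher on the same array, but only the dimmer was past 2-fold. Their gap of 1.06 log2 units exceeds the median gap of 0.30 over 6062 pairs of probe sets of the same gene. The mean difference was 1.24, and the brighter probe set alone would leave Thbs2 within 2-fold. Macrophage markers were higher on this array too. Macrophages are also known to make thrombospondin 1 and fibronectin, and the part of these cells in the Thbs1, Thbs2, Tnc, Sparc and Fn1 values was not tested.

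**Figure D1:**
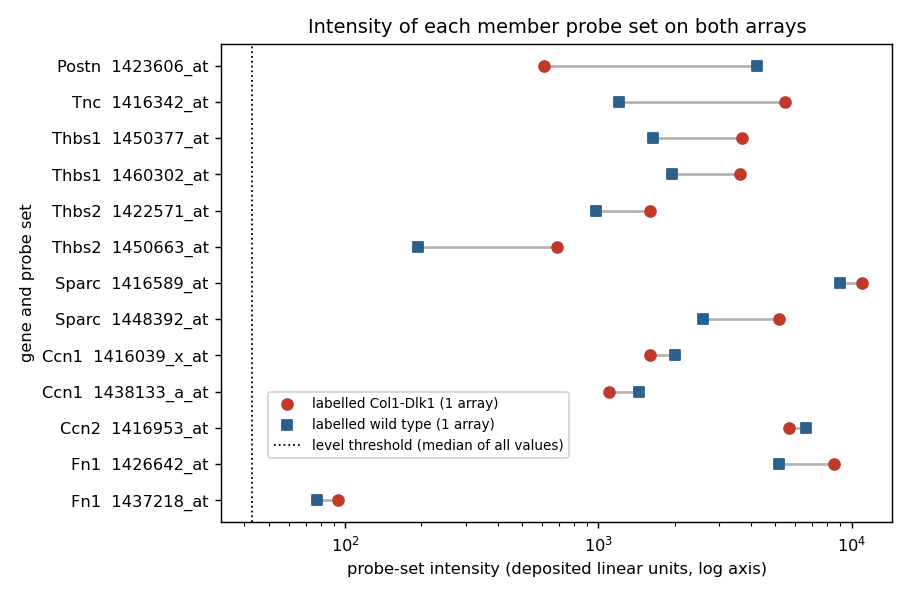
Intensity of each of the 13 probe sets of the 8 measured members on a log axis in deposited linear units, circles for the Col1-Dlk1-labelled array and squares for the wild-type-labelled array, 1 array each, with the level threshold of 42.8 dotted. All readings lie above the threshold, 9 probe sets were higher and 4 lower on the Col1-Dlk1-labelled array, and Postn and Tnc have the widest gaps. Positions of different genes are not comparable, since probe sets differ in response.

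Sparc encodes SPARC or osteonectin, a collagen- and calcium-binding protein that acts as a chaperone in procollagen handling. One probe set read 10983 on the Col1-Dlk1-labelled array and 8996 on the wild-type-labelled array. The other read 5168 and 2578. Both were higher on the Col1-Dlk1-labelled array, by 0.29 and 1.00 log2 units, and the mean of 0.64 was not called. It became 0.85 with quantile normalization and 0.86 with loess, again not called. The first probe set reads at percentiles 99.97 and 99.8 of its arrays. The gap between the probe sets, 0.71 log2 units, was again wider than the median of 0.30.

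Fn1, the fibronectin gene, also had 2 unlike probe sets. The bright one read 8544 on the Col1-Dlk1-labelled array and 5168 on the wild-type-labelled array, a log2 difference of 0.72. The other read 93.5 and 77.4, a difference of 0.24. The second probe set read at percentiles 64.1 and 61.5 of the arrays, while the first read at 99.9 and 99.3. The mean difference was 0.48, within 2-fold, and it stayed within 2-fold for either probe set taken alone.

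The CCN genes lay closest to no difference. Ccn1 (formerly Cyr61) and Ccn2 (formerly Ctgf) encode modular proteins that bind integrins and heparan sulfate and are textbook targets of YAP and TEAD and of serum response factor. The probe sets of Ccn1 read 1595 against 2011 and 1105 against 1448, lower on the Col1-Dlk1-labelled array by 0.33 and 0.39 log2 units. These agreed to 0.05 log2 units, the narrowest gap among the 5 members with 2 probe sets. Ccn2 read 5647 against 6633, a difference of -0.23, which was 0.002 after quantile normalization and -0.02 after loess. Its direction was therefore not settled.

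**Figure D2:**
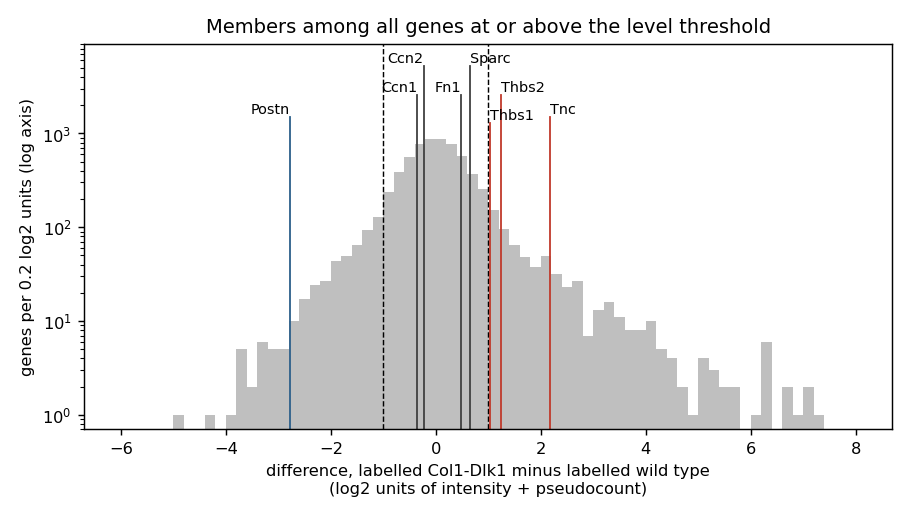
Histogram of the log2 differences (Col1-Dlk1-labelled array minus wild-type-labelled array) of the 6795 genes at or above the level threshold, on a log count axis in steps of 0.2, with dashed lines at 2-fold and a vertical line for each member. Postn at -2.78 and Tnc at 2.17 lie in the tails, Thbs1 and Thbs2 just past the upper dashed line, and the other 4 members inside the lines.

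Within the group, 5 members were higher and 3 lower on the Col1-Dlk1-labelled array whatever the size of the difference, with Ccn2 among the 3 and turning to 0.002 after quantile normalization. Of all passing genes, 51.2% had a positive difference. Each of the 5 members with 2 probe sets had both on the same side, as did all probe sets in 64.3% of passing genes with several. That share also covers genes with more than 2 probe sets and probe sets below the level threshold, so the 2 are not like for like. Probe sets repeat a reading of the same RNA, so a shared side describes the arrays alone. Thbs1 and Thbs2 were both higher, and the CCN genes Ccn1 and Ccn2 differed by -0.36 and -0.23.

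Other matricellular genes were mostly dim. Of 22 listed, 19 were measured and 11 lay below the level threshold on both arrays, among them Ibsp, Dmp1, Sparcl1 and Thbs4. None was called higher and 2 were called lower, with a median difference of -0.37 over the 8 that passed and 0.001 over all 19 measured. Thbs3, a thrombospondin of skeletal tissue, read 42.6 on the Col1-Dlk1-labelled array and 108 on the wild-type-labelled array (-1.16). Smoc2, a SPARC-related calcium-binding protein gene, read 15.1 and 52.0 (-1.27). Both have a reading below the level threshold on the Col1-Dlk1-labelled array, so their size depends on the pseudocount, and neither was called with the pseudocount at the median of all values (-0.82 and -0.67). With only the brighter of its 2 probe sets, Smoc2 differed by -0.85 and was not called. Thbs3 thus lay on the other side from Thbs1 and Thbs2. Comp, the cartilage thrombospondin, differed by -0.91. Fstl1, a SPARC-family glycoprotein gene, read 2487 and 3829, a difference of -0.62, where Sparc was at 0.64. The further CCN genes Ccn3, Ccn4 and Ccn5 differed by 0.31, -0.12 and 0.02, all within 2-fold like Ccn1 and Ccn2.

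Among genes for receptors of these proteins, Stab1, Itgb5 and Lrp1 were higher on the Col1-Dlk1-labelled array. Of 18 measured, 12 passed the level threshold, 3 were called higher and none lower, and the median difference over all measured was 0.54. Over all passing genes, 9.39% were called higher and 7.11% lower. Stab1, a scavenger receptor of macrophages that takes up SPARC, read 416 on the Col1-Dlk1-labelled array and 6.79 on the wild-type-labelled array (4.59), a size that depends on the pseudocount. Itgb5, the integrin beta subunit of a vitronectin receptor, read 1314 and 354 (1.86). Lrp1, an endocytic receptor for thrombospondins, read 1158 and 573 (1.002), just past 2-fold, and lost its call with median centring (0.94). Stab1 is itself a macrophage gene, and for Itgb5 and Lrp1 the part of macrophage RNA was not tested. Within 2-fold were Cd44, a receptor of hyaluronan and osteopontin (0.83), Itgb1, the common integrin beta subunit (0.82), and the fibronectin receptor subunit genes Itga5 (0.24) and Itgav (0.39). Cd47, a thrombospondin receptor gene, differed by -0.45. Also on this list and within 2-fold, Cav1 read 2117 and 3228 (-0.61), and Itga8 differed by 0.68. Cd36 and Itgb3 were below the level threshold.

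Known targets of the factors that control Ccn1 and Ccn2 differed in both directions. Of 15 measured YAP and TEAD targets, 10 passed the level threshold, none was called higher and 1 was called lower: F3, the tissue factor gene, at 246 against 523 (-1.05), which was -0.97 and not called with the pseudocount at the median of all values. Within 2-fold, Ajuba (-0.90), Axl (-0.66), Crim1 (-0.40) and Myof (-0.11) were lower on the Col1-Dlk1-labelled array. Tgfb2 (0.97), Gadd45a (0.86), Lats2 (0.79), Ankrd1 (0.49) and Amotl2 (0.40) were higher there, also within 2-fold. The list median was 0.11 over the measured genes and 0.15 over those that passed. All 19 serum response factor and actin genes passed, with 0 called higher, 1 called lower and a median of -0.01. The one called was Srf itself, which read 90.4 against 193 (-1.01) and was not called with that pseudocount (-0.85) or without its _x_at, _s_at and _a_at probe sets (-0.56). Within 2-fold, Zyx differed by 0.88, Tagln2 by -0.87, Actg1 by -0.43, Acta2 by -0.40 and Tagln by 0.16.

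All 16 measured TGF-beta-responsive matrix and feedback genes passed, 2 were called higher and 0 lower, and the list median was 0.28. The shares over all passing genes were 9.39% higher and 7.11% lower. Tgfb1, the cytokine that thrombospondin 1 can activate, read 242 on the Col1-Dlk1-labelled array and 110 on the wild-type-labelled array (1.06), or 0.89 and not called with the pseudocount at the median. Ltbp2, an extracellular matrix relative of the latent TGF-beta binding proteins, read 652 and 282 (1.18). The inhibitory Smad7 (-0.90) and Skil (-0.74) differed the other way, within 2-fold. Other genes of the list were higher within 2-fold, among them Tgfb2 (0.97), Tgfb3 (0.78), Col5a1 (0.76) and Pmepa1 (0.69). Tgfbi, which encodes a paralog of periostin, differed by 0.13, where Postn was at -2.78.

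Partners in the assembly of fibronectin, periostin and collagen gave 1 higher and 1 lower of 14 measured, with a median of 0.18. Of these, 12 passed the level threshold, and the shares over all passing genes were 9.39% higher and 7.11% lower. Plod2, a collagen lysyl hydroxylase gene, read 353 on the Col1-Dlk1-labelled array and 130 on the wild-type-labelled array (1.37). F13a1, the transglutaminase subunit of factor XIII, read 20.6 and 61.9 (-1.21), or -0.72 and not called with the pseudocount at the median. Bmp1, which encodes a procollagen-processing protease known as a partner of periostin, differed by 0.11, Col5a1, a fibrillar collagen gene, by 0.76, and Lox, the crosslinking enzyme gene, by 0.03. Col1a1 and Col1a2 differed by 0.28 and -0.18, so Postn and Tnc lay further from 0 than the fibrillar collagen they associate with.

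**Figure D3:**
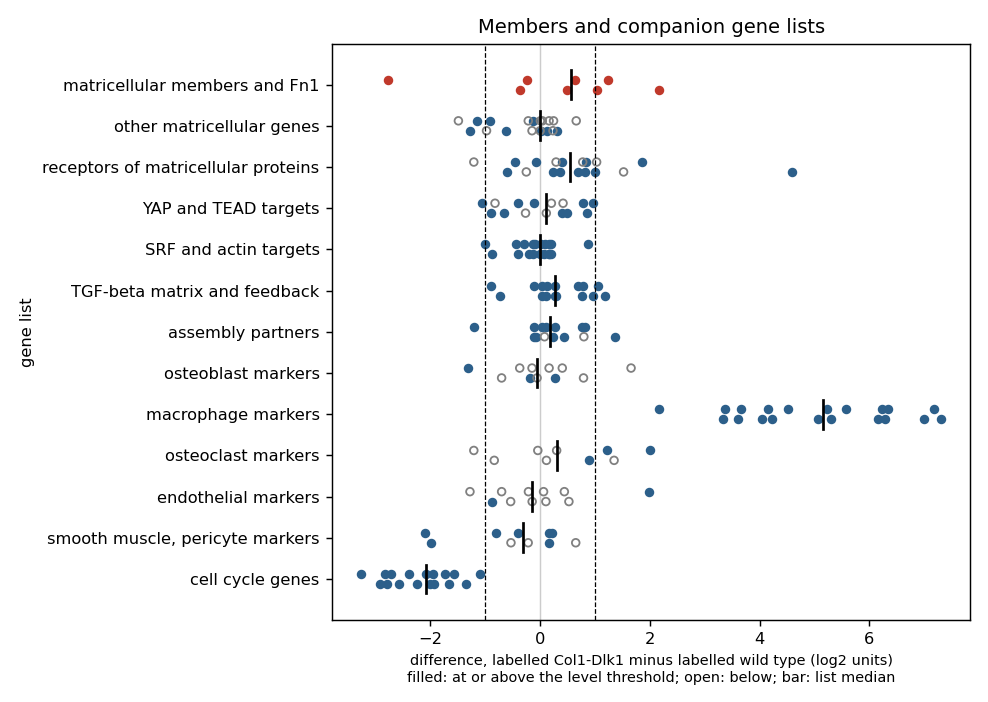
Log2 difference of each measured gene (Col1-Dlk1-labelled array minus wild-type-labelled array) by gene list, filled where the gene reaches the level threshold and open where it does not, with the list median as a bar and dashed lines at 2-fold. The members spread from -2.78 to 2.17, the macrophage markers lie at 2.17 or above with a median of 5.15, and the cell cycle genes lie below -1.

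Markers of other cells that could share the culture were read beside the members. Csf1r, which encodes the CSF1 receptor, read 1227 on the Col1-Dlk1-labelled array against 43.3, Cd68 read 1422 against 8.13, and Ptprc, the pan-leukocyte gene, read 485 against 16.7. Of 9 osteoclast markers, 3 passed the level threshold and Calcr lay below it. The 2 called higher were the acid phosphatase gene Acp5 and the protease gene Ctsk (1.21). Acp5 differed by 2.00, or 0.98 and not called with the pseudocount at the median. The list summed to 838 against 387, of which Ctsk alone gave 631 against 266. Of 11 endothelial markers, 2 passed and 1 was called higher, Eng (1.99), with Pecam1, Cdh5 and Vwf below the threshold. The list summed to 254 against 202, of which Eng alone gave 139 against 26.9, and its median difference was -0.14. The only other endothelial marker that passed, Egfl7, read 26.6 against 58.1 (-0.88), the other way and within 2-fold. Among 10 smooth muscle and pericyte markers, 7 passed, Smtn (-2.11) and Mcam (-1.98) were the 2 called lower, and Myh11 was below the threshold. The list summed to 8800 against 8339, of which Tagln alone gave 7450 against 6688, and its median difference was -0.31. Apart from the macrophage list, most markers in the osteoclast and endothelial lists lay below the threshold on both arrays, 6 of 9 and 9 of 11.

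**Figure D4:**
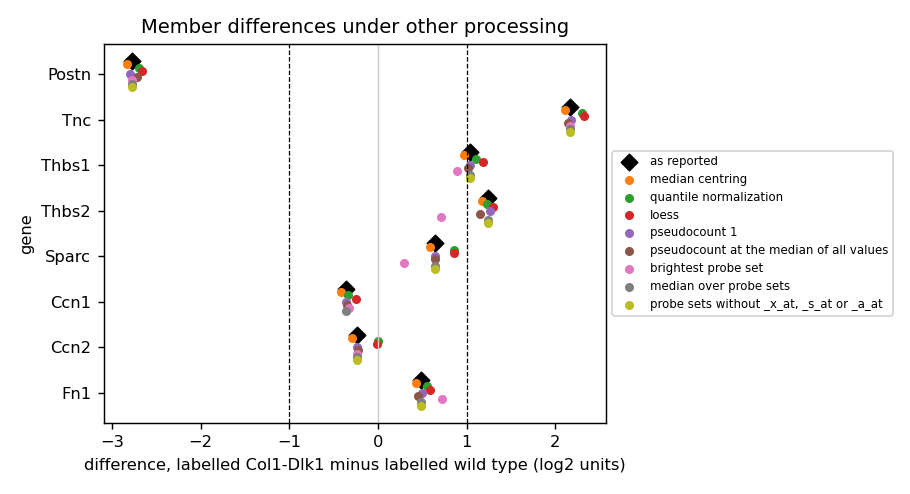
Log2 difference of each member (Col1-Dlk1-labelled array minus wild-type-labelled array) as reported (diamond) and under 8 other ways to scale the arrays, set the pseudocount or join probe sets (dots), with dashed lines at 2-fold. Postn stayed between -2.84 and -2.66 and Tnc between 2.11 and 2.32, while Thbs1 and Thbs2 crossed the 2-fold line when the brightest probe set was used and Ccn2 reached 0. Postn, Tnc and Ccn2 have 1 probe set each, so the ways to join probe sets cannot move them.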

How the data were processed

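The authors deposited linear probe-set intensities. Per the submitters' processing notes these come from Affymetrix Expression Console 1.1.1. The sources used here do not give the algorithm, background correction or scaling target. After trimming 2% of values at each end, the mean was 150.1 on both arrays. An equal mean does not show that bright genes share a scale. Loess moved all 8 members upward, for example Sparc from 0.64 to 0.86 and Ccn2 from -0.23 to -0.02. Probe sets were named through the platform annotation, with symbols updated by gene ID in the RefSeq gene table. The 64 control probe sets were left out, as were the 691 that name several genes and the 1555 that name none. The pseudocount is the 25th percentile of all values. Folds on the log2(intensity + pseudocount) scale understate differences of dim genes. With 1 array per genotype precision cannot be estimated. The members and gene lists were chosen with earlier results of these data known. The rule for named genes took every member, Dlk1, and from each companion list the called genes and up to 4 passing genes with the largest difference. It was not kept in full. For example, the passing markers Nfatc1 (0.89, osteoclast list) and Cspg4 (-0.79, pericyte list) were not described above. The macrophage list is given by its counts with Csf1r, Cd68 and Ptprc, and the cell cycle list by its count and median. Other genes were named with their values in view. The steps were run on simulated data with large differences added to genes well above the level threshold. That run checks the code and says nothing of dim genes or of these results. Protein sequences were not analysed here. Alternatives covered scaling (median centring, quantile, loess with a span of 0.3), pseudocount, level threshold, fold and handling of probe sets. Software was Python 3.11.15, matplotlib 3.10.9, statsmodels 0.14.6, pandas 2.3.3 and numpy 2.4.6.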

Additional observations from a re-analysis of the deposited data

How the results depend on the processing

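No paired analysis was possible because the groups hold 1 array each; for the same reason none was left out in turn. Tnc and Postn kept their calls under all 12 alternatives. Each has 1 probe set, so other handling of probe sets could not change its difference. The level and fold settings also leave the difference as it is. Only the alternatives of scaling and pseudocount recomputed it. The count of 3 members called higher became 1 at 3-fold and 1 with the brightest probe set of each gene; Thbs1 also lost its call with median centring (0.97), and Sparc gained one at 1.5-fold. With the brightest probe set Thbs2 differed by 0.71 and Sparc by 0.29, and the other 61 of 63 recomputed member differences moved by no more than 0.30 log2 units. Over all genes, 638 higher and 483 lower became 417 and 287 with the pseudocount at the median, 331 and 236 with the level threshold at the 75th percentile, 1307 and 1154 at 1.5-fold and 327 and 204 at 3-fold, and without a level threshold 772 were lower. Of the genes of the companion lists joined, 25 were lower, against 14 with the stricter level threshold and 16 at 3-fold. For single lists, 51 of 288 recomputed counts changed by over 1.5 times or went to or from 0. These include changes of 1 gene, such as the endothelial count higher, which went from 1 to 0 with the stricter level threshold. A stricter threshold or fold passes fewer genes by construction; for the other changes the cause was not tested. Ccn1 has no value without _x_at, _s_at and _a_at probe sets.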
